A study of Mus musculus with 15 samples.

Results

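Cells that run short of oxygen switch on a common set of genes through the hypoxia-inducible factors, HIF-1 alpha and HIF-2 alpha with their partner Arnt, which prolyl hydroxylases of the Egln family mark for destruction while oxygen is present. The set takes in glucose transporters and glycolytic enzymes, which make ATP without oxygen and end in lactate, together with the pH regulator carbonic anhydrase 9 and secreted factors that act on blood vessels. Medulloblastomas of the sonic hedgehog (SHH) class arise from cerebellar granule neuron precursors, and such precursors are known for a hexokinase 2 driven, lactate-producing use of glucose. The 10 genes described here cover these roles. Slc2a1 (the glucose transporter GLUT1), Hk2 (hexokinase 2), Aldoa (aldolase A), Pgk1 (phosphoglycerate kinase 1) and Ldha (lactate dehydrogenase A) belong to glucose uptake and glycolysis. Car9 (carbonic anhydrase 9) sits in the cell membrane, Vegfa and Adm (adrenomedullin) encode secreted factors that act on blood vessels, and Ankrd37 and Mgarp encode a hypoxia-induced ankyrin repeat protein and a mitochondrial protein linked to mitochondrial transport.

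The genes were a named list, found on the arrays through the RefSeq transcript of each probe. They had 16 probes and made up 10 of 33456 gene names on the array, of which 22205 were tested; all 10 members were well above background on all 15 arrays and all were tested. Each gene is given by its probe with the highest mean signal. The members were chosen by their difference between R-type and S-type tumours, which was already known for this list, so that values between these types are given below as a description with no test. Levels of Hk2 and Slc2a1 in tumours and normal cerebella were also known, so their p-values in that comparison are given as a description. Tests are given for tumours against normal cerebella and for the doses within each type.

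Total RNA of 12 mouse medulloblastomas and 3 normal cerebella was hybridised to 15 one-colour (Cy3) Agilent arrays, 1 array for each sample. The tumours came from Ptch1+/- mice on a C3B6F1 background, in which a copy of the receptor that restrains SHH signalling is lost, and irradiation was given as X-rays on postnatal day 1. There were 4 tumour groups of 3: S-type at 0 Gy (MB1 to MB3), S-type at 0.2 Gy (MB4 to MB6), R-type at 0.2 Gy (MB7 to MB9) and R-type at 1.5 Gy (MB10 to MB12). The labels do not say what S and R stand for, and give neither genotype nor strain for the unirradiated normal cerebella. All mice were female except that of MB6. Ages, labelled without a unit, were 128 to 173 for S-type tumours, 87 to 127 for R-type tumours and 103 to 113 for normal cerebella. The types share only the dose of 0.2 Gy, since no S-type tumour had 1.5 Gy and no R-type tumour had 0 Gy. The ages of the types do not overlap, so type and age cannot be told apart. Within S-type, ages were 160 to 173 at 0 Gy and 128 to 135 at 0.2 Gy. Within R-type, they were 106 to 127 at 0.2 Gy and 87 to 103 at 1.5 Gy. Dose and age therefore cannot be told apart within a type either. A tumour arose in its own animal, so the p-values measure the spread between animals, with 3 animals in each group. Animals were taken when moribund, and the labels do not say how much of each tumour was necrotic.

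The arrays had 59.1% to 66.5% of probes well above background, and were printed on 4 slides that each held S-type and R-type tumours. The labelled tissues were checked against marker genes. The summed signal of 7 SHH and granule precursor markers was 165 to 236 times the 75th percentile of the array in tumours and 1.24 to 1.32 times in normal cerebella, where Atoh1 was not well above background. The sum of 7 Purkinje cell markers was 274 to 288 in normal cerebella and 3.89 to 8.5 in tumours.

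Promoter sequences are shown for the 3 genes whose levels followed each other most closely from tumour to tumour (Ldha, Pgk1 and Ankrd37), for Slc2a1, which did not follow them, and for Mgarp, which differed most between the types. They are the 250 bases before the first listed transcript start in RefSeq, build GRCm38.p6, 5′ to 3′. Those of Ldha (chr7:46845554-46845803) and Pgk1 (chrX:106186850-106187099) are on the plus strand, as is that of Slc2a1 (chr4:119108495-119108744). Those of Ankrd37 (chr8:45999851-46000100) and Mgarp (chr3:51396548-51396797) are on the minus strand. Capitals mark ACGTG, the core of the hypoxia response element, and the related GCGTG, each on both strands (read backwards, CACGT for the first and CACGC for the second). The palindrome CACGTG holds the first motif on both strands and counts for both.
Ldha: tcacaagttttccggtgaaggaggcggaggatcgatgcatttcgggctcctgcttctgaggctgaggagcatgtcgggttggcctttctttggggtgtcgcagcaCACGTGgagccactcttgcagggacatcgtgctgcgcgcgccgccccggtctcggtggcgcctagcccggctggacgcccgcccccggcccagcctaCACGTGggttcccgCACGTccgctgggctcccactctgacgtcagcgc
Pgk1: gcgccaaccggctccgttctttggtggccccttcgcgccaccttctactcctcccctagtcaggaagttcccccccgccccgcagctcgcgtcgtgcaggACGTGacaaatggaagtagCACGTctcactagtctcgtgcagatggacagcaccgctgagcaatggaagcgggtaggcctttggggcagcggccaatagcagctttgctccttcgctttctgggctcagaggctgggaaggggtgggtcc
Ankrd37: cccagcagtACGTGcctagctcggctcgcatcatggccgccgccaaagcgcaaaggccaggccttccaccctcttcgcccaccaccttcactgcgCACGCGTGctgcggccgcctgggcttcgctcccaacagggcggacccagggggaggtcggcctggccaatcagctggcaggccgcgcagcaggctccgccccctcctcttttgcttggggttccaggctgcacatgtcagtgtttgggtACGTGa
Slc2a1: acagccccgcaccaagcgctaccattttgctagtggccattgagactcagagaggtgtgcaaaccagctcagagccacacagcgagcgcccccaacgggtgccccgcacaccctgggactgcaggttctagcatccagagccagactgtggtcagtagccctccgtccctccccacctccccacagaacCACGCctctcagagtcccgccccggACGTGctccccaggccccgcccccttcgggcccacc
Mgarp: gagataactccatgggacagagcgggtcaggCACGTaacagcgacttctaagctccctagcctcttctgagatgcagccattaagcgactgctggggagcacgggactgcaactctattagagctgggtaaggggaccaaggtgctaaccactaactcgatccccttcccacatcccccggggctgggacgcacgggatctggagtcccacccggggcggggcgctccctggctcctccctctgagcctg

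Ldha had CACGTG with first bases at -145 and -48 from the start, and CACGT at -34. The Pgk1 promoter held ACGTG at -150 and CACGT at -131. In Ankrd37, ACGTG stood at -241 and -6, and CACGC and GCGTG overlapped at -155 and -152. Slc2a1 carried CACGC at -61 and ACGTG at -36, and Mgarp carried CACGT at -219. All 10 members matched the RefSeq promoter table, with 14 promoter entries in all. In 9 of 10 members, all but Adm, at least 1 entry held ACGTG, against 18.5% of 27025 gene symbols and 16.6% of 32851 promoters of the same length. For Aldoa and Vegfa it was only in a later entry, and the first entry held none. GCGTG was found for 5 of 10 members, against 30.9% of gene symbols and 28.2% of promoters. For Ldha and Vegfa it was likewise only in a later entry. Adm held only CACGC, at -90 and -54. These matches are letters in a window and show no binding.

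Between tumours and normal cerebella the members went both ways. Levels are given on the log2 scale, with 0 at the 75th percentile of the array, differences are tumours minus normal cerebella with their standard error (SE), and a gene is called where the limma test has a Benjamini-Hochberg adjusted p under 0.05 over all 22205 genes. Of the 10 members, 4 were higher in tumours (Hk2, Ldha, Adm and Mgarp), 5 were lower (Car9, Aldoa, Ankrd37, Slc2a1 and Vegfa) and Pgk1 was not called. Over all tested genes 43.4% were called higher and 35.5% lower, so that these counts lie near the background. The counts for lists of other genes between tumours and normal cerebella, given below, are to be read beside the same shares. The median difference over all genes was 0.13. Lack of overlap between tumours and normal cerebella, given below for some members, has no share of all genes beside it. Fewer cells of a type and less RNA in each cell cannot be told apart in such bulk samples.

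The glycolytic members are taken in pathway order. Slc2a1, which brings glucose into cells and is rich in the endothelium of the brain, was at 3.13, 3.37 and 3.32 in the normal cerebella and at 1.83 to 2.79 (median 2.27) in the 12 tumours. Every normal cerebellum lay above every tumour, and the difference was -0.95 (SE 0.09; 1.93-fold lower in tumours; limma adjusted p 1.32e-06). Hk2, which traps glucose in the cell as its phosphate, stood at 2.00, 1.75 and 1.63 in normal cerebella and at 4.21 to 5.40 (median 4.90) in tumours. Its rise of 3.05 (SE 0.16; 8.27-fold; limma adjusted p 4.03e-09) was the largest among the 10 members, and the groups did not overlap. Levels of Hk2 and Slc2a1 were known beforehand, so their p-values here are a description. Aldoa, which splits the sugar into trioses, fell from 7.97, 7.99 and 8.02 in normal cerebella to 5.72 to 7.22 (median 6.57) in tumours. That is -1.40 (SE 0.16; limma adjusted p 4.99e-06), again without overlap.

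Pgk1, an ATP-forming step, was at 4.91, 5.07 and 4.98 in normal cerebella and at 3.96 to 5.40 (median 4.68) in tumours. Tumours lay on both sides of the normal cerebella, and the difference of -0.31 (SE 0.20; 95% interval -0.74 to 0.13) had an adjusted p of 0.178 by limma. With quantile normalization Pgk1 was called at -0.63 (limma adjusted p 0.00402). Ldha, which turns pyruvate into lactate, rose from 4.08, 4.07 and 4.25 to 4.77 to 6.32 (median 5.51). Its difference was 1.38 (SE 0.20; 2.60-fold; limma adjusted p 4.35e-05), and all tumours were above all normal cerebella.

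**Figure D1:**
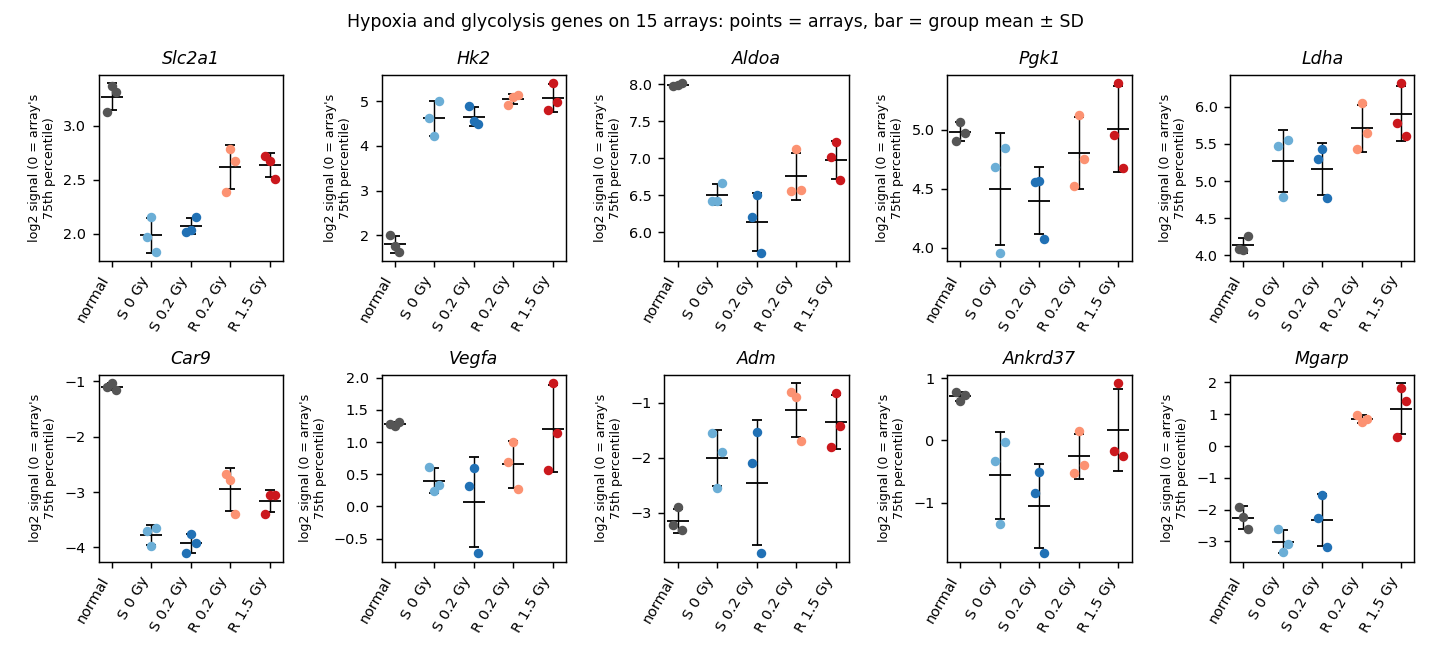
Log2 signal (0 is the 75th percentile of the array; each panel has its own axis) of the 10 genes on 15 arrays, by group; points are arrays and bars the group mean ± SD (n = 3). Hk2 and Ldha lie higher in all 12 tumours than in the 3 normal cerebella, Slc2a1, Aldoa and Car9 lie lower, and Mgarp separates R-type from S-type tumours.

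Around these members the rest of glycolysis was lower in tumours. Of the 13 other glycolytic enzymes tested, 0 were called higher and 11 lower, with a median difference of -1.45 against 0.13 over all genes. Hk1, the hexokinase of most neurons, fell by 2.94 on the log2 scale (SE 0.13; adjusted p 6.48e-10 by limma), opposite to Hk2. Pfkm, the muscle-type phosphofructokinase, fell by 3.02 (SE 0.17; limma adjusted p 7.33e-09). Eno2, the neuronal enolase, went from 5.13 ± 0.06 (SD, n = 3) in normal cerebella to -1.22 ± 0.91 (SD, n = 12) in tumours, a difference of -6.36 (SE 0.43; limma adjusted p 3.34e-08). Ldhb, the lactate dehydrogenase that favours pyruvate, fell by 1.75 (SE 0.13; limma adjusted p 6.93e-08), opposite to Ldha. The 2 enzymes not called, named after their values were seen, were Gapdh at 0.02 (limma adjusted p 0.907) and Eno1 at -0.23 (limma adjusted p 0.221).

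Paralogs of the members were called in both directions. Of 8 tested, 2 were called higher and 6 lower. Aldoc, the aldolase of astrocytes and Purkinje cells, went from 6.81 ± 0.13 (SD, n = 3) in normal cerebella to 0.52 ± 0.93 (SD, n = 12) in tumours. Hk3, a hexokinase of myeloid cells, rose by 2.37 (SE 0.19; limma adjusted p 1.36e-07). Summed microglia and macrophage markers were 4.05 to 5.36 in normal cerebella and 23.6 to 44.4 in tumours, and the sum for astrocytes and Bergmann glia was 142 to 161 against 12.7 to 40.2. The part of these cell types in the differences was not tested.

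Transporters and regulators of flux into and out of the pathway gave 3 called higher and 8 lower of 17 other genes tested. Pgm2 (phosphoglucomutase 2) rose by 1.82 (SE 0.06; limma adjusted p 1.13e-10) and Pgm1, of the same enzyme family, fell by 1.76 (SE 0.09; limma adjusted p 3.4e-09). Pdk2, a kinase that holds back pyruvate dehydrogenase, was lower by -3.27 (SE 0.14; limma adjusted p 4.37e-10). Bsg (basigin), a chaperone of lactate transporters, was lower by -1.03 (SE 0.06; limma adjusted p 1.23e-08). Slc16a3 (the lactate exporter MCT4), named after its values were seen, rose by 3.57 (SE 0.49; limma adjusted p 2.41e-05).

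**Figure D2:**
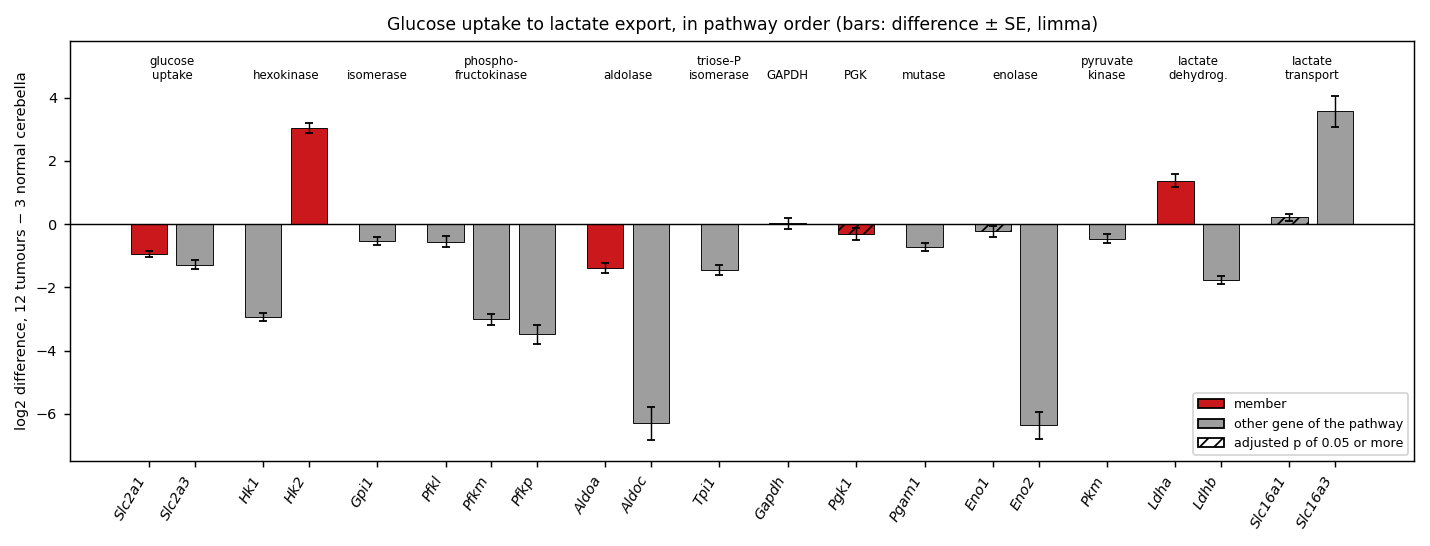
Log2 difference, 12 tumours minus 3 normal cerebella, for genes from glucose uptake to lactate export in pathway order; bars are the limma estimate, whiskers ± SE, red bars the members, and hatched bars genes with an adjusted p of 0.05 or more. Hk2 (3.05), Ldha (1.38) and Slc16a3 (3.57) point up and their partners Hk1 (-2.94) and Ldhb (-1.75) point down.

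Car9, which sets the pH outside hypoxic cells, was lower in tumours. It read -1.09, -1.03 and -1.15 in normal cerebella and -4.10 to -2.67 (median -3.52) in tumours, without overlap. The difference was -2.36 (SE 0.14; 5.15-fold lower; limma adjusted p 1.15e-08). Its family shared the direction: of 11 other carbonic anhydrases tested, 1 was called higher and 9 lower. Car7 fell by 2.35 (SE 0.14; limma adjusted p 1.27e-08) and Car11, a relative without enzyme activity, fell by 2.73 (SE 0.18; limma adjusted p 3.39e-08). Car8, known from Purkinje cells, went from 4.25 ± 0.10 (SD, n = 3) to -3.86 ± 1.21 (SD, n = 12), and Car14 from 0.13 ± 0.36 to -4.30 ± 0.81, with some tumours not well above background for either. The 1 gene called higher was Car3, named after its values were seen, which was not well above background in any normal cerebellum.

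Vegfa and Adm, the vessel-directed members, went opposite ways. Vegfa was at 1.29, 1.26 and 1.32 in normal cerebella and at -0.72 to 1.91 (median 0.59) in tumours. Only MB11 lay above the normal cerebella, and the other 11 tumours lay below them. The difference was -0.70 (SE 0.28; limma adjusted p 0.0382), and the call was lost on leaving out any 1 of the normal cerebella (highest adjusted p 0.0976), or MB2, MB3, MB9 or MB12 (highest adjusted p 0.055). The call rested on 1 probe of 4: the other 3 gave 0.48, 0.27 and -0.28, none called, and the mean of all 4 gave -0.06 (limma adjusted p 0.898). Adm rose from -3.21, -2.90 and -3.31 to -3.73 to -0.81 (median -1.62), by 1.41 (SE 0.39; 2.65-fold; limma adjusted p 0.00515). MB6 alone lay below the normal cerebella for Adm, and the other 11 tumours lay above them.

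Among 11 other genes of the VEGF and adrenomedullin ligands and receptors, 4 were called higher and 5 lower. Ramp3, a partner of the adrenomedullin receptor, fell by 4.89 (SE 0.43; limma adjusted p 3.76e-07). Flt1 (VEGF receptor 1) fell by 1.83 (SE 0.17; limma adjusted p 8.01e-07), while its ligand Pgf (placental growth factor) rose by 3.02 (SE 0.34; limma adjusted p 4.08e-06). Nrp1, a co-receptor, rose by 1.70 (SE 0.15; limma adjusted p 4.35e-07). Summed endothelial and pericyte markers were 13.2 to 14.7 in normal cerebella and 13.2 to 27.5 in tumours. Of these 12 markers, 5 were called higher in tumours and 3 lower.

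Ankrd37 was lower in most tumours and Mgarp split them. Ankrd37 stood at 0.78, 0.64 and 0.72 in normal cerebella and at -1.81 to 0.92 (median -0.36) in tumours; only MB11 was above the normal cerebella. The difference was -1.14 (SE 0.33; limma adjusted p 0.00701). Mgarp was at -1.90, -2.24 and -2.60 in normal cerebella. All 6 R-type tumours lay above these values, at 0.28 to 1.82 (median 0.90), and the 6 S-type tumours lay around and below them, at -3.32 to -1.55 (median -2.84). The difference over all tumours of 1.42 (SE 0.34; limma adjusted p 0.00194) therefore averages values on both sides of normal.

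Of 8 other genes of mitochondrial transport and fusion, 1 was called higher and 6 lower. The mitofusin genes, which join mitochondria, were lower, Mfn2 by -1.64 (SE 0.07; limma adjusted p 4.87e-10) and Mfn1 by -0.89 (SE 0.05; limma adjusted p 4.27e-09). Trak2, an adaptor of the same transport machinery, fell by 0.65 (SE 0.06; limma adjusted p 9.05e-07). Rhot2, which links mitochondria to motor proteins, gave -0.98 (SE 0.05; limma adjusted p 5.3e-09), but its other probe gave 0.08.

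The factors and sensors upstream of the members were called in both directions. Of 9 tested, 2 were called higher and 6 lower, with a median of -0.34. Hif1a fell by 0.46 (SE 0.09; limma adjusted p 0.000719) and Egln2 fell by 0.36 (SE 0.06; limma adjusted p 0.000146). Arnt rose by 0.56 (SE 0.09; limma adjusted p 8.23e-05) and Egln3, itself induced by hypoxia, by 2.21 (SE 0.43; limma adjusted p 0.000463). Of 23 other hypoxia-induced genes tested, 11 were called higher and 5 lower, with a median of 0.37. Over all tested genes 43.4% were called higher and 35.5% lower, so the count called higher lies near the background. Plod2, a collagen lysyl hydroxylase, rose by 2.46 (SE 0.12; limma adjusted p 1.6e-09) and Hmox1 (heme oxygenase 1) by 2.72 (SE 0.17; limma adjusted p 1.28e-08). Ak4, a mitochondrial adenylate kinase, fell by 5.11 (SE 0.33; limma adjusted p 2.29e-08). For 2 genes, Hif1an and Ero1a, probes were called in opposite directions.

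Within each type, no member was called between the dose groups, which also differed in age. At 0.2 Gy against 0 Gy in S-type tumours, 0 of 10 were called by limma, against 0.0045% of all genes (1 of 22205; 1281 at an unadjusted p under 0.05). At 1.5 Gy against 0.2 Gy in R-type tumours, 0 of 10 were called by limma, against 0.0676% (15 of 22205; 1569 at an unadjusted p under 0.05). The unadjusted p of the members began at 0.0983 (Aldoa, -0.37, 95% interval -0.81 to 0.08, S-type) and 0.15 (Vegfa, 0.55, -0.23 to 1.34, R-type). The widest interval was that of Adm in S-type tumours, -1.52 to 0.62, and the narrowest that of Slc2a1, -0.17 to 0.35. None of the non-member pathway genes was called for dose either. Over all genes these counts moved with single arrays: leaving out MB1 gave 17 genes for the S-type doses, and leaving out MB8 gave 162 for the R-type doses. No member was called in any of these settings, the lowest adjusted p being 0.513.

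Between R-type and S-type tumours, the comparison by which the list was drawn up, the 10 members had higher means in R-type tumours. Mgarp differed by 3.68 (12.8-fold), Adm by 0.98, Car9 by 0.79, Ankrd37 by 0.76, Vegfa by 0.70, Slc2a1 by 0.60, Ldha by 0.59, Aldoa by 0.54, Pgk1 by 0.46 and Hk2 by 0.42. For Mgarp, Car9 and Slc2a1 every R-type tumour lay above every S-type tumour; over all genes 4.9% had this pattern, and 10.7% were called higher (2383 genes, with 2252 lower). Without scaling between arrays, Car9 overlapped by a narrow margin (lowest R-type tumour 6.88, highest S-type tumour 6.90 in unscaled log2 signal), Slc2a1 and Mgarp were still separated, and 0.694% of all genes had this pattern. Car9 ran from -4.10 to -3.64 (median -3.84) in S-type and from -3.40 to -2.67 (median -3.05) in R-type tumours. Slc2a1 ran from 1.83 to 2.16 (median 2.03) and from 2.39 to 2.79 (median 2.68). The other 7 members overlapped: Ldha, for example, spanned 4.77 to 5.55 in S-type and 5.43 to 6.32 in R-type tumours. For Car9, Slc2a1, Aldoa, Ankrd37, Vegfa and Pgk1, the R-type mean lay between the S-type mean and that of normal cerebella. For Vegfa this held only for the probe used. Its other probes had R-type means above normal (0.64 against -0.24, -1.82 against -1.98 and -5.08 against -5.39).

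At the shared dose of 0.2 Gy, with 3 tumours of each type, the differences were 3.18 for Mgarp, 1.32 for Adm, 0.98 for Car9 and 0.55 for Slc2a1. Within the 4 slides, the difference ranged from 2.92 to 4.35 for Mgarp, 0.34 to 1.24 for Car9 and 0.44 to 0.90 for Slc2a1. That of Ldha ranged from 0.20 to 1.01, and those of Adm (-0.14 to 1.33) and Vegfa (-0.33 to 1.12) changed sign. The 75th percentile was lower on R-type arrays (-0.22 on the log2 scale). Without scaling, the median of all genes shifted by -0.20, and 2.64% of all genes were called higher (587, with 5975 lower). The members' differences were then smaller, 0.20 for Hk2, 0.24 for Pgk1, 0.32 for Aldoa, 0.37 for Ldha, 0.38 for Slc2a1 and 3.46 for Mgarp. Endothelial and pericyte markers summed to 13.2 to 25.3 in S-type and 21 to 27.5 in R-type tumours, with 0 of 12 called by limma in either direction; their part in the difference was not tested.

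Other pathway genes are given beside the 10.7% of all genes called higher and 10.1% called lower. Of 13 other glycolytic enzymes 2 were called higher, Tpi1 by 0.84 (limma adjusted p 0.00153) and Eno1 by 0.53 (limma adjusted p 0.0278), of 23 other hypoxia-induced genes 3 were called higher (Plod2, Stc2 and Pfkfb3), and of 9 factors and sensors 3 (Arnt, Egln1 and Hif1an). Of 17 other genes of transport and flux, 4 were called higher (Slc16a3, Pfkfb3, Gys1 and Pgm2) and 1 lower (Slc16a7, a transporter of lactate and pyruvate). Nrp2, a co-receptor of VEGF, was the 1 of 11 vessel-directed genes called, and it was lower. Mfn1 was called higher among 8 genes of mitochondrial transport and fusion, as was Slc2a5, a fructose transporter, among 8 paralogs. Of 11 other carbonic anhydrases 0 were called by limma in either direction. At an unadjusted limma p under 0.05 there were 2, against 7864 of all 22205 genes. At 0.2 Gy alone, limma called 4.79% of all genes in either direction and 2 of the 92 other pathway genes. These were Tpi1 and Slc2a5, both higher. At an unadjusted limma p under 0.05 there were 15 of the 92, against 4858 of all 22205 genes. The pathway genes called between the types were named because the counts are small, after their values were seen.

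Inside the groups some of the members varied together. Each tumour was set against the mean of its own group of 3, which removes the differences between the 4 groups. The SD of these deviations was 0.71 for Adm, 0.61 for Ankrd37 and 0.60 for Mgarp, and 0.15 for Slc2a1, against a median of 0.22 over all tested genes. MB11 was the highest R-type tumour for 7 of 10 members and MB3 the highest S-type tumour for 6. MB6 was the lowest S-type tumour for 5 members and MB7 the lowest R-type tumour for 5. Ankrd37, for instance, deviated by 0.75 in MB11 and 0.55 in both MB3 and MB5, and by -0.79 in MB2 and -0.76 in MB6. Adm ran from -1.28 in MB6 to 0.92 in MB5.

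**Figure D3:**
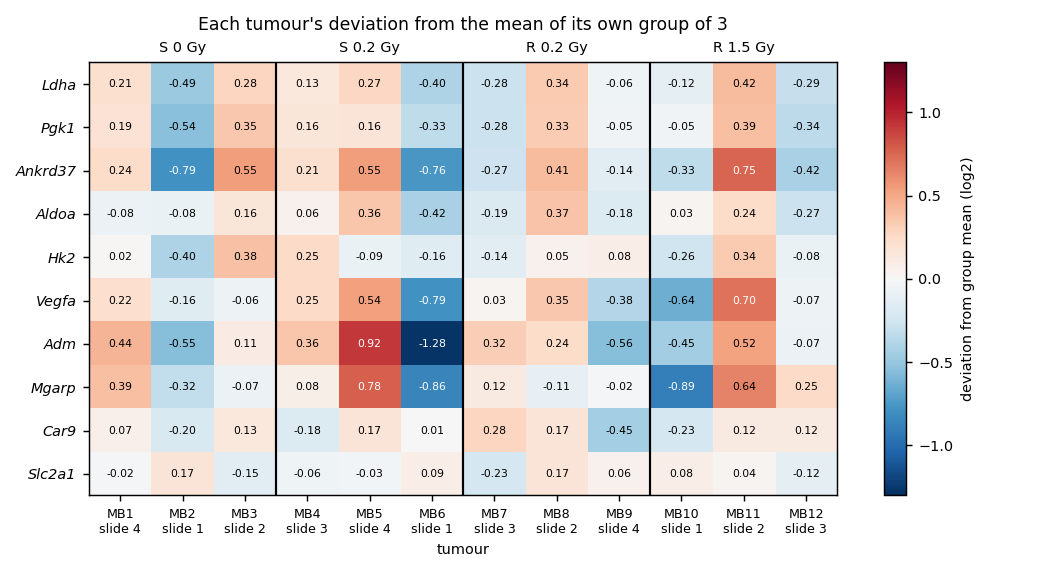
Deviation of each tumour from the mean of its own group (log2), for 10 genes in rows and 12 tumours in columns, with the slide of each array; red is above and blue below the group mean. MB11 and MB5 are red and MB2 and MB6 blue in most rows, and the row of Slc2a1 is pale throughout.

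Ldha and Pgk1 deviated almost in step, with Pearson's r of 0.985 and Spearman's rho of 0.979 over 12 tumours. Each had an exact two-sided permutation p of 0.00077, the smallest that reordering within groups can give (1296 reorderings), and 0.00695 after Benjamini-Hochberg adjustment over the 45 pairs. Without the 2 tumours farthest from the median of Ldha, r was 0.98. Ldha and Ankrd37 gave r of 0.978 and rho of 0.972 with the same exact p and adjusted p, and r of 0.963 without these tumours. The pair of Vegfa and Adm gave r of 0.909 (exact permutation p 0.00154, adjusted 0.0116) and rho of 0.923 (exact permutation p 0.00231, adjusted 0.0148), and r of 0.887 without MB6 and MB11. Of the 45 pairs, 37 had an r above 0 and 8 had an adjusted exact permutation p under 0.05, all 8 positive; by rho it was 7. These 8 pairs took in 7 members, and Car9, Slc2a1 and Hk2 were in none of them. The 12 deviations sum to 0 in each group of 3, so they carry less information than 12 free values. The reordering took no account of slide. No share of all gene pairs passing the same test is given, so the count of 8 has no background beside it.

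**Figure D4:**
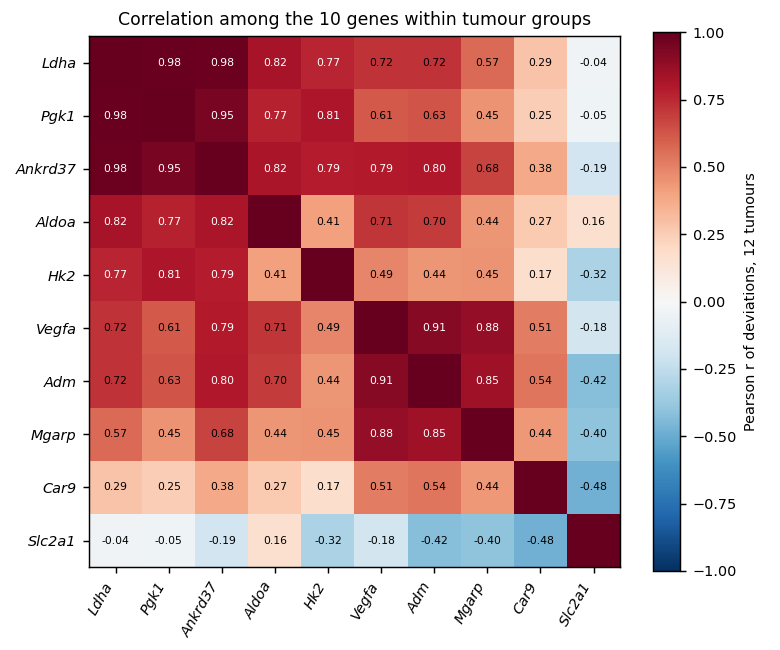
Pearson's r between the deviations of each pair of the 10 genes over 12 tumours (group means removed); red is positive and blue negative. Ldha, Pgk1 and Ankrd37 form the darkest block (r 0.95 to 0.985), and Slc2a1 is pale or blue with every other gene.

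Slc2a1 had the lowest median r with the other members. Its r with the 9 other members ran from -0.48 (Car9) to 0.157 (Aldoa), and none of the 9 had an adjusted exact permutation p under 0.05, as was also the case for Car9 and Hk2. With Ldha its r was -0.0375 over 12 tumours, made up of -0.913 over the 6 S-type and 0.715 over the 6 R-type tumours; the difference between these was not tested. The median r with the other members was 0.79 for Ankrd37, 0.719 for Ldha and 0.711 for Vegfa, 0.447 for Hk2 and Mgarp, 0.289 for Car9 and -0.191 for Slc2a1. Over all tested genes the median r with these members was between -0.00573 and 0.111.

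**Figure D5:**
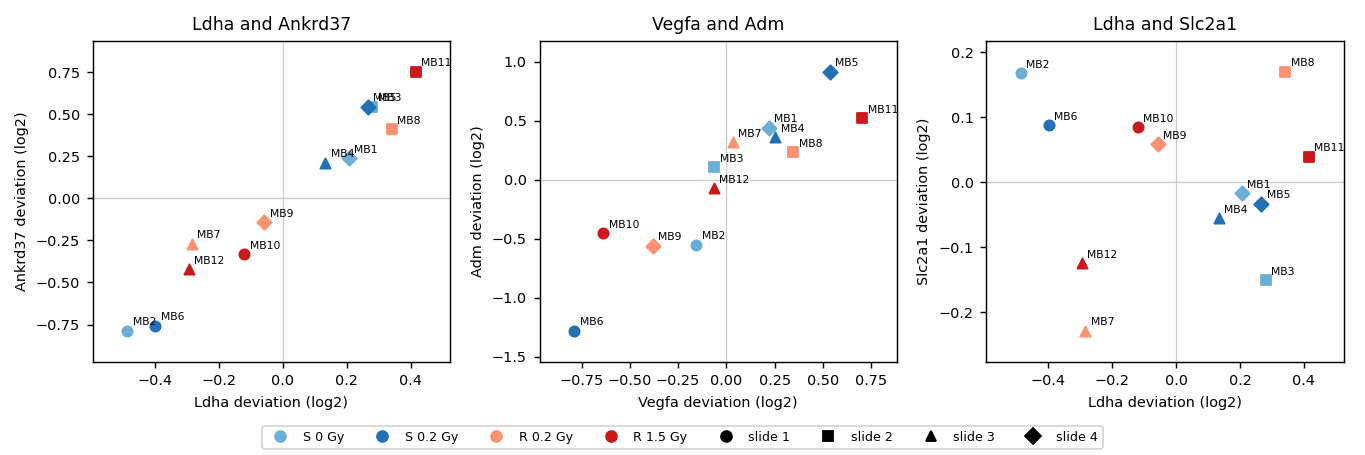
Deviations from the group mean (log2) of 3 pairs of genes in 12 tumours, coloured by group and shaped by slide. Ldha and Ankrd37 (r = 0.978) and Vegfa and Adm (r = 0.909) lie near a line, and Ldha and Slc2a1 (r = -0.0375) do not.

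The deviations of the members differed between slides. Of the 30 values of the 3 tumours on slide 1 (MB2, MB6 and MB10), 25 were below 0, and of the 30 on slide 2 (MB3, MB8 and MB11), 26 were above 0. The members vary together and each slide held 3 tumours, so the 30 values are not independent. No share over all genes stands beside these counts. With slide as a term, r was 0.943 for Ldha with Pgk1, 0.893 for Ldha with Ankrd37 and 0.807 for Vegfa with Adm. The log2 75th percentile of the array had an r of -0.605 with Ldha and -0.503 with Ankrd37, and without scaling between arrays the r of these 2 genes was 0.982. Of 10 marker lists, the log2 sums for SHH and granule precursors (r 0.814 with Ldha and 0.776 with Ankrd37) and for endothelium and pericytes (0.777 and 0.756) followed the members most closely. For microglia and macrophages r was -0.127 and -0.213. Single genes within a list differed. In the endothelial and pericyte list, r with Ankrd37 was 0.864 for Emcn and -0.853 for Slco1c1. In the precursor list it was 0.834 for Atoh1 and -0.00151 for Mycn. The part of slide, array signal and these cell types in the shared variation was not tested.

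Genes of the pathway that are not members took part in this variation to unequal degrees. An r of at least 0.8 with Ankrd37, the member with the highest median r, was found for 5.83% of all tested genes. It was found for 7 of 13 other glycolytic enzymes (Gpi1, Pfkl, Tpi1, Gapdh, Pgam1, Eno1 and Pkm), among them Eno1 at 0.949 and Gapdh at 0.914. Values were negative for Hk1 (-0.363), Pfkm (-0.646), Pfkp (-0.721), Aldoc (-0.584) and Eno2 (-0.432). Of 23 other hypoxia-induced genes, 11 reached 0.8, including Ddit4 (0.964), a stress-induced inhibitor of mTOR signalling, P4ha2 (0.938), a collagen prolyl hydroxylase, and Bnip3 (0.894), which acts in mitophagy. The lactate exporter gene Slc16a3 had 0.949 and the oxygen sensor gene Egln3 0.963. Of 11 other carbonic anhydrases and 11 other genes of the vessel-directed list, 0 reached 0.8, with a median r of -0.379 and 0.0453. The threshold counts positive values only, and the lowest values in these lists were strongly negative, Car10 at -0.924 and Ramp1 at -0.931. Ankrd37 as the point of reference, the threshold and the genes named here were chosen after the values were seen.

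By the rule for likeness, the 3 genes with the highest r of deviations over the 12 tumours are named for the 3 members with the widest spread. For Adm these were Myadm (0.967), Dclk1 (0.959) and Esm1 (0.956). Those of Ankrd37 were Upk1a (0.972), Nampt (0.967) and Ddit4 (0.964), and those of Mgarp were Cda (0.93), Wdsub1 (0.924) and Ppm1m (0.919). They are the highest of 13434 symbols tested.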

How the data were processed

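The authors deposited scanner intensities on a linear scale, 1 file for each array, which per the file headers were background-subtracted and spatially detrended without scaling between arrays (Agilent Feature Extraction 9.5.1, as the submitters' processing notes name it). A deposited series table of log2 values served only as an alternative input. Array-to-array differences in it and in the scanner values had correlations of 0.99993 to 0.99999, and its columns for MB1 and MB2 summed to 0 (largest departure 1e-06), so direction and log base are settled while the centring on these 2 arrays and any earlier scaling are unexplained. Its column medians were 0.00234, 0.0817 and 0.0889 (normal cerebella), and 0.0506, -0.0506, 0.106, 0.0683, -0.0795, 0.0526, 0.0704, 0.13, 0.127, 0.0912, 0.152 and 0.0996 (tumours MB1 to MB12 in order).

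Log2 processed signals less the 75th percentile of each array were used for 41098 of 41174 probes; 76 carried outlier flags on some array. Probes were named through RefSeq accessions. Each name took its probe with the highest mean, and tests covered names with a signal well above background on 3 arrays or more. Group means of all 5 groups were fitted with limma 3.58.1 (R 4.3.3; 10 residual and 1.71 prior degrees of freedom; two-sided tests; Benjamini-Hochberg over 22205 names), and the fit was tested on simulated data. Tables used Python 3.11.15, pandas 2.3.3 and numpy 2.4.6. Precision is limited by 3 arrays in each group.

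The members and the lists (18 lists, 190 genes) were chosen with earlier results of these data known. The rule for named genes took the members, up to 4 non-members with the smallest adjusted p between tumours and normal cerebella from each list that is not a marker list, and the 3 genes most like each of the 3 most variable members; exceptions are stated, and 1 gene the rule took is not reported here. Alternatives were no scaling, quantile normalization, normexp background correction, the deposited table, other filters, slide as a term, the mean of a gene's probes and leaving out each array.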

Additional observations from a re-analysis of the deposited data

Results flagged for a closer look

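Vegfa in the S-type tumours had 1 tumour far from the other 5. MB6 stood at -0.72, the nearest other S-type tumour at 0.24 and the highest at 0.62, so that the gap took 0.72 of the range, above Dixon's 95% critical value for 6 samples. The same tumour had the lowest Adm and Ankrd37 of the 15 arrays (-3.73 and -1.81), was the only one from a male mouse, and had 59.1% of probes well above background, as did MB3. Its part in these values was not tested. In all, 20 groups were examined (10 members in 2 types), and chance alone marks about 1 in 20.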

How the results depend on the processing

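Of 690 values of the 30 tested member results under the alternatives, 678 kept their side of the threshold, and no called difference changed sign. Uncalled dose differences could cross 0, as did that of Adm in R-type tumours (-0.22, with a highest value of 0.10). Between tumours and normal cerebella, 8 of the 10 members kept their call under every alternative run. Pgk1 was called without scaling (-0.48), with quantile normalization (-0.63) and with normexp (-0.62). Vegfa lost its call without the filter on dim probes (limma adjusted p 0.0552), with the mean of its probes (0.898) and on leaving out single arrays (0.052 to 0.0976). Without scaling the R-type minus S-type differences of Hk2, Pgk1, Aldoa, Ldha and Slc2a1 were 0.20 to 0.38, and Car9 no longer separated the types. The count of genes called for the S-type doses, 1, became 0 without scaling, without the filter and with slide as a term, and 2 with quantile normalization; leaving out single arrays gave 0 to 17. The count for the R-type doses, 15, ran from 9 to 162 on leaving out single arrays (25 without MB10, 9 without MB9). Where an array was left out, its group of 2 was assumed to vary like the others. For the correlations of Ldha with Pgk1, Ldha with Ankrd37 and Vegfa with Adm, 7 settings added after seeing the data each gave values from 0.807 to 0.986. The causes were not tested. No paired analysis was possible because the 12 tumours are numbered in 1 run and come from different animals than the normal cerebella, so that the 4 tumour groups share no numbers with each other. All 10 members were well above background on all 15 arrays, so the number of arrays limits the precision.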
